A study of Mus musculus with 18 samples.

Results

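Semaphorins, netrins and ephrin-A ligands, together with the plexin, neuropilin, DCC, UNC5 and EphA receptors that read them, form 51 of the 46078 genes in the RNA-seq table of this series. They were chosen by family, and the 476 of 111664 ATAC-seq peaks that lay from 5000 bp upstream of 1 of these genes to its end were taken with them. The series profiled small cell lung cancer (SCLC), a neuroendocrine lung tumor, raised in mice in which Adenovirus-Cre was given into the trachea at 8 weeks of age and tumor cells were isolated 28 weeks later from 3 independent animals of each genotype. All 3 genotypes carried conditional alleles written in the labels as Rb1L/L; Rbl1L/L; p53L/L. TKO animals carried these alone, TKO;Carm1 animals (the CARM1 knockout) also carried Carm1L/L, conditional alleles of an arginine methyltransferase, and TKO;NfibR388K animals (the NFIB mutant) carried the transcription factor NFIB with the arginine that CARM1 methylates changed to lysine. Per the study's methods a Cre-dependent tdTomato reporter marked the cells for sorting on a mixed C57BL/6;FVB129/N background, while the labels give only SCLC cells and other passages speak of biopsies and of cell lines, so the cell population behind a library is not fully described. Each genotype had 3 RNA-seq and 3 ATAC-seq libraries, and the comparisons asked how loss of CARM1, or of the methylated arginine in NFIB, altered expression and open chromatin at these genes.

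These families steer growing axons and migrating cells. Class 3 semaphorins are secreted and act through neuropilins paired with A-type plexins, while class 4 to 7 semaphorins are mostly membrane-bound and engage plexins directly. Plexins signal through a domain that switches off small Ras-family GTPases. Netrins are secreted cues that attract through DCC and neogenin and repel through the UNC5 receptors, and DCC and UNC5 proteins can also act as dependence receptors. EphA proteins are receptor tyrosine kinases that bind ephrin-A ligands held in the membrane of a neighboring cell by a lipid anchor. Neuroendocrine tumors express many neuronal genes, and these same families also act in epithelium, vessels and connective tissue.

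The RNA-seq libraries held 15848866 to 20915057 counts on genes and the ATAC-seq libraries 26917178 to 47653979 counts in peaks. Levels are given as CPM, the count relative to the library total after trimmed-mean scaling. The value of 3 counts, taken here as the limit of detection, corresponded to 0.143 to 0.189 CPM before that scaling. Carm1 itself was read at 97.6, 103 and 44.5 CPM in the TKO libraries and at 63.3, 79.0 and 50.7 CPM in the CARM1 knockout libraries, a log2 change of -0.34 ± 0.31 (adjusted p = 0.410), so gene-level counts did not show the deletion, and the sources used here do not state which exons it removes. The table columns carry initials in place of sample titles, and no value here checks independently that the initials were matched to the right genotypes. Nfib was read at 420, 579 and 570 CPM in TKO, 74.4, 216 and 87.1 CPM in the CARM1 knockout and 105, 83.2 and 91.3 CPM in the NFIB mutant (log2 changes -2.06 ± 0.40 and -2.49 ± 0.41, adjusted p = 0.00800 and 0.00325), and counts per gene cannot show the changed amino acid. The libraries differed in their cell type markers. The 11 neuroendocrine markers, among them Insm1 and Chga, summed to 1680 to 4413 CPM in TKO, to 59.2, 188 and 1744 CPM in the CARM1 knockout and to 33.9 to 51.6 CPM in the NFIB mutant. The SCLC label was thus not borne out by this sum in 5 of the 6 mutant libraries, in which Insm1 lay between 0 and 4.43 CPM. Single markers differed, and Ncam1 was read at 148.6 CPM in CARM1 knockout replicate 2, against 159.1, 169.5 and 283.4 CPM in TKO. By the test described below, 2 of the 11 were called lower in the CARM1 knockout and 10 in the NFIB mutant, and 0 higher in either. CARM1 knockout replicate 3 stood apart from the other mutant libraries by the neuroendocrine sum. It also read 776 CPM over 8 lung epithelium markers, a sum that was 2731 CPM in NFIB mutant replicate 1, 205 CPM in replicate 2 of that genotype and at most 33.5 CPM elsewhere. The 6 fibroblast markers (Col1a1, Col1a2, Col3a1, Dcn, Lum and Pdgfra) summed to 11.1 to 63.3 CPM in TKO, 14430 to 25750 CPM in the CARM1 knockout and 9464 to 15890 CPM in the NFIB mutant. The 8 leukocyte markers summed to 4.50 to 54.2, 179 to 2698 and 27.3 to 519 CPM, the 6 pericyte and smooth muscle markers to 7.39 to 12.5, 464 to 1846 and 116 to 518 CPM, and the 6 endothelial markers to at most 4.60 CPM in any library, with Emcn and Cldn5 at 0 throughout. The part these differences played in the results below was not tested. In bulk libraries a fall in the number of cells of a type and a fall in RNA per cell cannot be told apart.

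Of the 51 genes, 49 passed the filter on low counts and were tested with the other genes, 15514 in all, by the quasi-likelihood test of edgeR. The p-values were adjusted by the Benjamini-Hochberg method, and a change was called at an adjusted p below 0.1 and a log2 change of at least 0.8 in size. Unc5d and Epha6 did not pass the filter. Of the 49, 10 rose in the CARM1 knockout (20.4% of those tested, against 20.5% of all genes) and 9 fell (18.4% against 18.3%). In the NFIB mutant 13 rose (26.5% against 22.3%) and 16 fell (32.7% against 23.5%). The shares called in the CARM1 knockout were therefore close to the background. The median log2 change of the 49 genes was -0.09 in the CARM1 knockout and -0.26 in the NFIB mutant, against -0.03 and -0.05 over all genes, while the median size of the change, ignoring sign, was 1.77 and 1.83 against 0.92 and 1.02. Every mutant library lay above every TKO library for 9 genes and below for 12, where 22.3% and 23.3% of all genes did so. Both comparisons used the same TKO libraries, so a gene called in both is not supported by independent controls. Without CARM1 knockout replicate 3 the same 10 genes rose in the CARM1 knockout and 12 fell, where 19.8% of all genes rose and 19.8% fell.

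**Figure D1:**
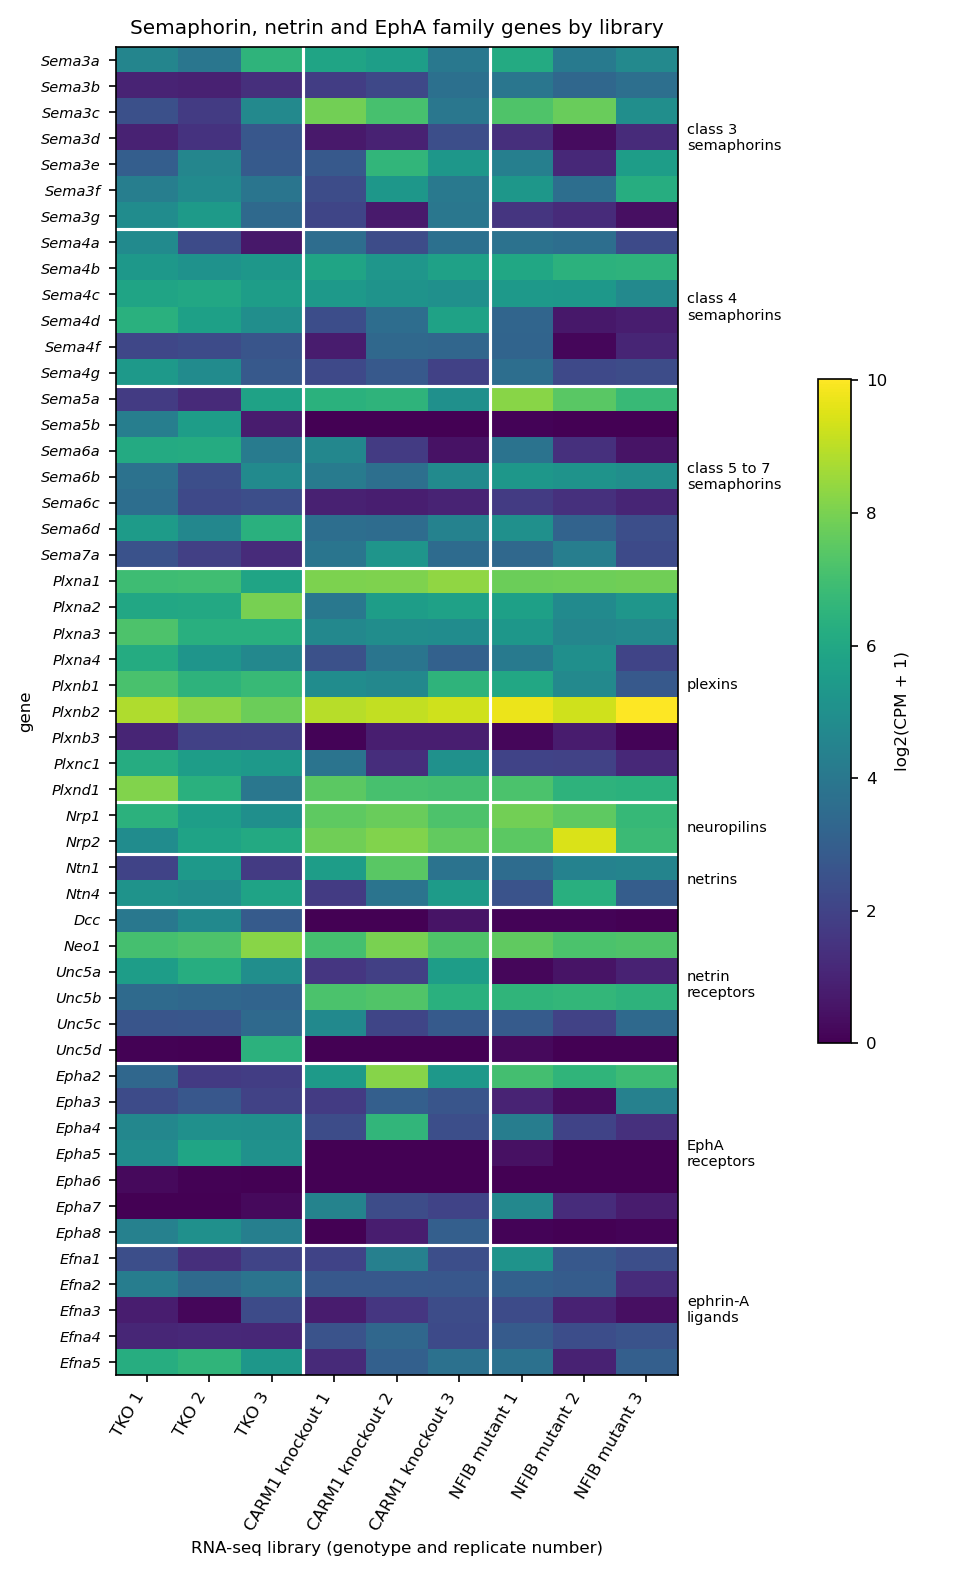
RNA level of the 51 genes (rows, grouped by role) in the 9 RNA-seq libraries (columns), as log2(CPM + 1) on the color scale. Epha5, Dcc and Sema5b are dark in the mutant libraries and lighter in TKO, Unc5b and Epha2 show the opposite order, and the column of CARM1 knockout replicate 3 keeps Unc5a and Epha8 visible.

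Per kilobase of exon, Plxnb2, a receptor for class 4 semaphorins, had the highest mean level in every genotype, at 42.5 CPM per kb in TKO, 71.8 in the CARM1 knockout and 108 in the NFIB mutant. It was followed in TKO by Neo1 (22.3 CPM per kb), Plxnd1 (17.2), Efna5 (17.02) and Plxna3 (13.1). In the CARM1 knockout the next levels were those of Plxna1 (31.5 CPM per kb), Epha2 (27.0), Neo1 (20.8) and Plxnd1 (20.3), and in the NFIB mutant those of Nrp2 (27.8 CPM per kb), Plxna1 (24.5), Epha2 (24.2) and Neo1 (18.6). Mean levels under 1 CPM were found for 2 genes in TKO (Epha6 and Epha7), 7 in the CARM1 knockout and 8 in the NFIB mutant.

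**Figure D2:**
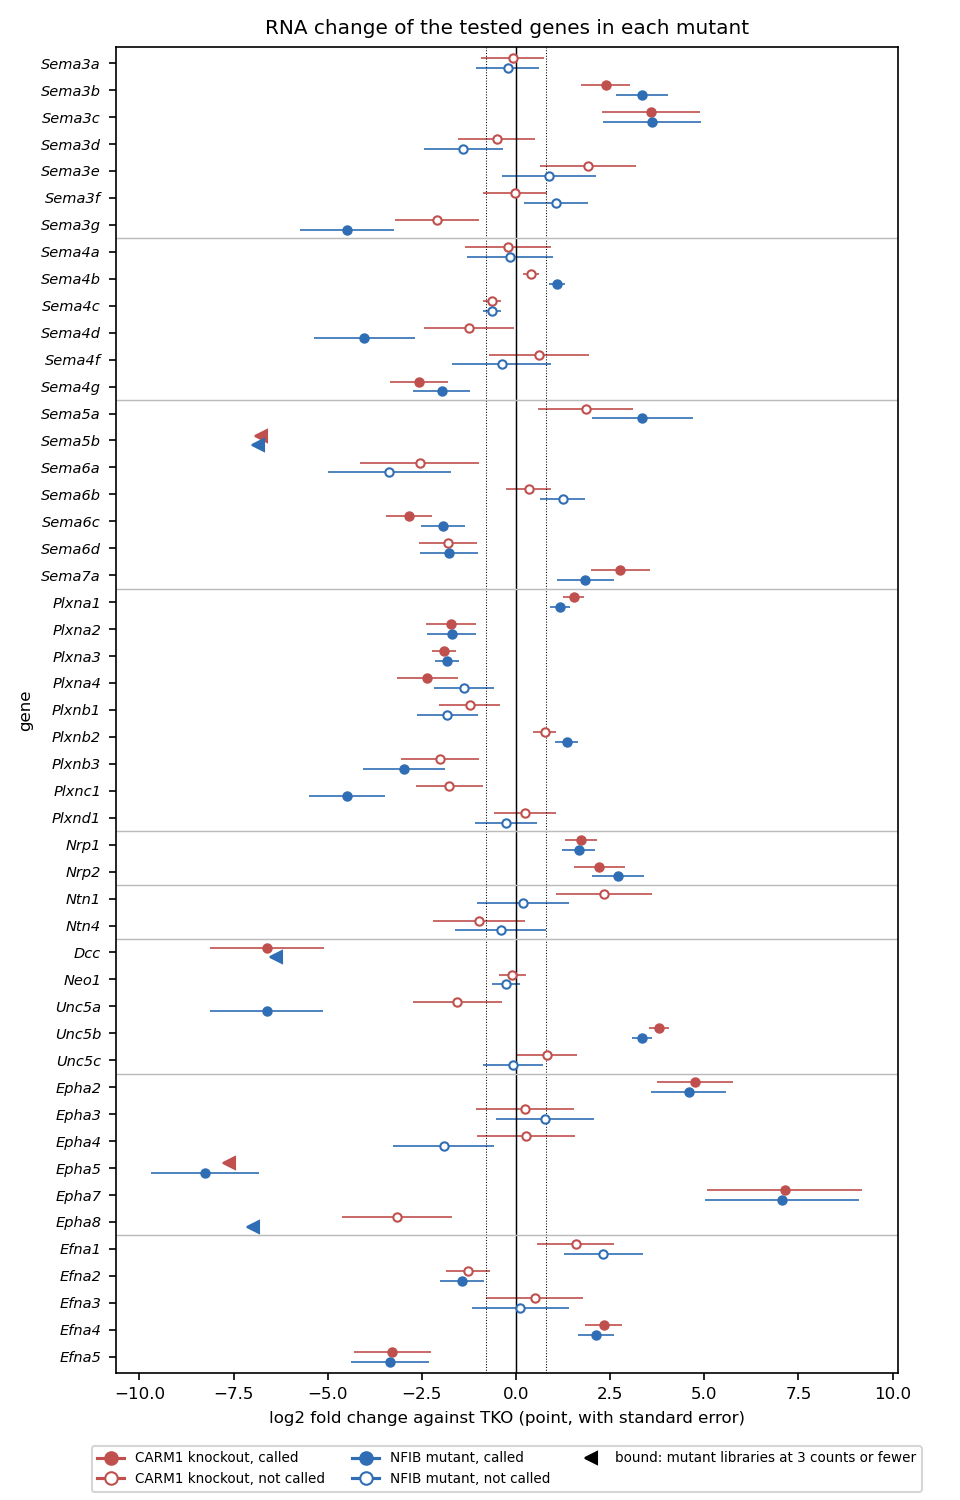
Log2 fold change against TKO (horizontal axis) of the 49 tested genes (vertical axis, grouped by role), with standard errors, in the CARM1 knockout (red) and the NFIB mutant (blue). Filled points passed the test, dotted lines mark 0.8 in either direction, and triangles are bounds for genes whose mutant libraries held 3 counts or fewer. Points lie on both sides of 0 within most roles, and both neuropilins lie to the right.

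Among the class 3 semaphorins, 2 of 7 tested genes rose in the CARM1 knockout, and 2 rose and 1 fell in the NFIB mutant. Sema3b and Sema3c were higher and Sema3g was lower. Sema3b (chr9:107597674-107609229), a secreted ligand of neuropilins, was read at 1.01, 0.873 and 1.55 CPM in TKO, 2.5, 3.49 and 11.9 in the CARM1 knockout and 14.1, 9.29 and 11.7 in the NFIB mutant. Its mutant libraries all lay above the TKO libraries, with CARM1 knockout replicate 3 the highest of its genotype. Against TKO the log2 change was 2.38 ± 0.65 (adjusted p = 0.0258) in the CARM1 knockout and 3.35 ± 0.68 (adjusted p = 0.00701) in the NFIB mutant, and leaving out 1 library put the first between 1.43 (without CARM1 knockout replicate 3) and 2.76 (without CARM1 knockout replicate 1). Sema3c (chr5:17574281-17730268), which guides neural crest cells and cortical axons, was read at 4.46, 2.31 and 25.4 CPM in TKO, 237, 137 and 14.6 in the CARM1 knockout and 153, 214 and 30.1 in the NFIB mutant. Replicate 3 was the lowest library in both mutants and the highest in TKO, and the CARM1 knockout overlapped TKO. The log2 changes were 3.59 ± 1.30 (adjusted p = 0.0638) and 3.62 ± 1.30 (adjusted p = 0.0542), and without TKO replicate 3 they were 5.30 and 5.32. The call was lost in the CARM1 knockout without either of TKO replicates 1 and 2 or CARM1 knockout replicates 1 and 2 (adjusted p = 0.115 to 0.162), and in the NFIB mutant without TKO replicate 1, TKO replicate 2 or NFIB mutant replicate 2 (adjusted p = 0.125 to 0.142).

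Sema3g (chr14:31217860-31230352), known from vessels, was read at 28.6, 42.8 and 9.73 CPM in TKO, 3.32, 0.641 and 14.9 in the CARM1 knockout and 1.94, 1.35 and 0.317 in the NFIB mutant. All NFIB mutant libraries lay below TKO, whereas CARM1 knockout replicate 3 lay within the TKO range. On the log2 scale the change was -4.48 ± 1.25 (adjusted p = 0.0231) in the NFIB mutant and -2.10 ± 1.12 (adjusted p = 0.171) in the CARM1 knockout, and without CARM1 knockout replicate 3 the latter was -3.72 (adjusted p = 0.0429). Of the genes that did not pass the test, Sema3a, a repellent for sensory axons, was read at 22.6, 14.4 and 90.2 CPM in TKO, 56.4, 47.7 and 15.1 in the CARM1 knockout and 68.1, 15.8 and 25.5 in the NFIB mutant, with the groups overlapping (log2 changes -0.09 ± 0.84 and -0.22 ± 0.84, adjusted p = 0.940 and 0.848). Sema3e, a ligand of plexin D1, was read at 7.0, 23.5 and 6.24 CPM in TKO, 6.02, 94.4 and 38.1 in the CARM1 knockout and 18.8, 1.23 and 47.3 in the NFIB mutant, and again the groups overlapped, with log2 changes of 1.91 ± 1.29 (adjusted p = 0.268) and 0.87 ± 1.25 (adjusted p = 0.591). Sema3d and Sema3f also did not pass in either mutant.

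Of the 6 class 4 semaphorins, 1 fell in the CARM1 knockout, and 1 rose and 2 fell in the NFIB mutant. Sema4b (chr7:80186841-80226527), a membrane semaphorin, was read at 39.4, 33.2 and 38.4 CPM in TKO, 56, 37.6 and 52.1 in the CARM1 knockout and 61.2, 84.9 and 88.4 in the NFIB mutant. The NFIB mutant libraries all lay above TKO, whereas CARM1 knockout replicate 2 lay within it. The log2 change was 1.08 ± 0.22 (adjusted p = 0.00658) in the NFIB mutant and 0.39 ± 0.21 (adjusted p = 0.179) in the CARM1 knockout. Sema4d, a ligand of plexin B1 that is also used by immune cells, was read at 82, 50.9 and 29.8 CPM in TKO, 4.13, 10.9 and 53.4 in the CARM1 knockout and 8.62, 0.554 and 0.761 in the NFIB mutant. Its NFIB mutant libraries lay below every TKO library, and CARM1 knockout replicate 3 lay within the TKO range. Against TKO the log2 change was -4.03 ± 1.34 (adjusted p = 0.0426) in the NFIB mutant, where the call was lost without replicate 2 or 3 of that genotype (adjusted p = 0.102 and 0.111) and the change reached -6.34 without replicate 1, and -1.25 ± 1.20 (adjusted p = 0.435) in the CARM1 knockout.

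Sema4g, a little-studied membrane semaphorin, was read at 41.4, 27.2 and 5.97 CPM in TKO, 3.65, 6.0 and 2.86 in the CARM1 knockout and 11.3, 3.57 and 4.06 in the NFIB mutant. TKO replicate 3 lay within the mutant values, so the groups overlapped. On the log2 scale the change was -2.57 ± 0.77 (adjusted p = 0.0354) in the CARM1 knockout, lost without TKO replicate 1 or CARM1 knockout replicate 1 (adjusted p = 0.108 and 0.112), and -1.98 ± 0.76 (adjusted p = 0.0658) in the NFIB mutant, lost without TKO replicates 1 or 2 or NFIB mutant replicates 2 or 3 (adjusted p = 0.132 to 0.208). Without TKO replicate 1 the changes were -1.96 and -1.38, and without NFIB mutant replicate 1 the second was -2.69. Sema4c, which binds plexin B2, was read at 57.1, 62.9 and 47.1 CPM in TKO, 41.1, 34.2 and 31.5 in the CARM1 knockout and 42.3, 39.1 and 25.2 in the NFIB mutant. All 6 mutant libraries lay below TKO and the adjusted p passed, but the size of the change did not (log2 -0.64 ± 0.24 and -0.65 ± 0.24, adjusted p = 0.0655 and 0.0564). Sema4a, another plexin ligand with roles in immune cells, was read at 26.5, 3.93 and 0.575 CPM in TKO, 10.9, 4.08 and 12 in the CARM1 knockout and 12.6, 11.4 and 3.81 in the NFIB mutant and its groups overlapped (log2 changes -0.20 ± 1.14 and -0.15 ± 1.14, adjusted p = 0.902 and 0.921). Sema4f passed in neither mutant.

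In classes 5 to 7, 1 of 7 genes rose and 2 fell in the CARM1 knockout, and 2 rose and 3 fell in the NFIB mutant. Sema5a and Sema5b, membrane semaphorins with thrombospondin repeats, lay in opposite directions. Sema5b (chr16:35541145-35664732) was read at 18.3, 47.2 and 0.708 CPM in TKO, 0 in all 3 CARM1 knockout libraries and 0.0607, 0 and 0 in the NFIB mutant. It was above the limit of detection in all 3 TKO libraries, low in replicate 3, and at 1 count in all in the mutants. It was at least 109-fold lower in the CARM1 knockout (adjusted p = 0.0144) and at least 116-fold lower in the NFIB mutant (adjusted p = 0.0142), the bound being set by 3 counts in each mutant library, and without TKO replicate 2 the bounds were 46.9 and 50.01. Sema5a (chr15:32244810-32696341) was read at 2.3, 1.31 and 53.3 CPM in TKO, 84.3, 89.5 and 31.4 in the CARM1 knockout and 302, 175 and 107 in the NFIB mutant. The NFIB mutant libraries all lay above TKO, and CARM1 knockout replicate 3 lay below TKO replicate 3. The log2 change was 3.36 ± 1.33 (adjusted p = 0.0728) in the NFIB mutant and 1.85 ± 1.26 (adjusted p = 0.272) in the CARM1 knockout. The first was lost without TKO replicates 1 or 2 or NFIB mutant replicates 1 or 2 (adjusted p = 0.118 to 0.149), and without TKO replicate 3 the changes were 6.78 and 5.28, the latter then called (adjusted p = 0.00406).

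Sema6c, a transmembrane ligand of A-type plexins, was read at 11.5, 3.67 and 4.29 CPM in TKO, 0.88, 0.815 and 1.01 in the CARM1 knockout and 2.37, 1.6 and 1.08 in the NFIB mutant. The 6 mutant libraries all lay below TKO. Against TKO the log2 change was -2.83 ± 0.62 (adjusted p = 0.0111) in the CARM1 knockout and -1.94 ± 0.59 (adjusted p = 0.0315) in the NFIB mutant, and without TKO replicate 1 they were -2.12 and -1.23, the second no longer called (adjusted p = 0.123). Sema7a, which is held by a lipid anchor and signals through plexin C1 and integrins, rose by 2.77 ± 0.79 (adjusted p = 0.0294) in the CARM1 knockout and 1.84 ± 0.76 (adjusted p = 0.0830) in the NFIB mutant, on the log2 scale, the second lost without any of 5 libraries (TKO replicates 2 and 3, CARM1 knockout replicate 1 and NFIB mutant replicates 1 and 2, adjusted p = 0.102 to 0.266). Without CARM1 knockout replicate 2 and NFIB mutant replicate 2 in turn, these changes were 2.02 and 1.18. Sema6d changed by -1.77 ± 0.77 (adjusted p = 0.0939) in the NFIB mutant, a call lost when any library other than TKO replicate 2 or NFIB mutant replicate 1 was left out (adjusted p = 0.106 to 0.257). Leaving out 1 library put it between -2.99 (without NFIB mutant replicate 1) and -1.20 (without TKO replicate 3). Of the genes not called, Sema6a was read at 69.2, 70.1 and 16.8 CPM in TKO, 23.8, 2.33 and 0.393 in the CARM1 knockout and 13, 1.6 and 0.444 in the NFIB mutant (log2 changes -2.56 ± 1.58 and -3.37 ± 1.64, adjusted p = 0.230 and 0.127). It was called lower in the CARM1 knockout without CARM1 knockout replicate 1 (log2 -5.24, adjusted p = 0.0751). In the NFIB mutant it was called without NFIB mutant replicate 1 (log2 -5.65) or CARM1 knockout replicates 1 or 3 (adjusted p = 0.0588 to 0.0893 over these 3). Sema6b was read at 12.7, 4.24 and 26.9 CPM in TKO, 16.9, 11.7 and 26.8 in the CARM1 knockout and 38.8, 34.7 and 29.9 in the NFIB mutant (log2 changes 0.34 ± 0.60 and 1.24 ± 0.61, adjusted p = 0.679 and 0.130). Without TKO replicate 3 it was called higher in the NFIB mutant (log2 2.06, adjusted p = 0.0252). For both, the NFIB mutant libraries lay outside the TKO range and the CARM1 knockout libraries overlapped it.

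Of the 9 plexins, 1 rose and 3 fell in the CARM1 knockout, and 2 rose and 4 fell in the NFIB mutant. The A-type plexins, which carry the class 3 and class 6 signals, moved both ways. Plxna1 (chr6:89316314-89362620) was read at 118, 121 and 57.1 CPM in TKO, 263, 266 and 325 in the CARM1 knockout and 216, 223 and 227 in the NFIB mutant. Every mutant library lay above every TKO library. The rise was 2.88-fold in the CARM1 knockout (log2 1.53 ± 0.28, adjusted p = 0.00589) and 2.25-fold in the NFIB mutant (log2 1.17 ± 0.28, adjusted p = 0.0126). Plxna3 (chrX:74329066-74344689) was read at 149.8, 79.7 and 79.8 CPM in TKO, 24.9, 29 and 28.1 in the CARM1 knockout and 38.7, 23.1 and 25.2 in the NFIB mutant. Every mutant library lay below every TKO library, and the spread within each mutant was narrow. On the log2 scale the change was -1.91 ± 0.31 (adjusted p = 0.00393) and -1.83 ± 0.31 (adjusted p = 0.00360). Plxna2 also fell, with log2 changes of -1.73 ± 0.66 (adjusted p = 0.0753) and -1.71 ± 0.66 (adjusted p = 0.0674). Both Plxna2 calls rested on TKO replicate 3, at 247 CPM against 63.3 and 65.8 in the others, without which the changes were -0.74 and -0.73 (adjusted p = 0.282 and 0.271), and were also lost without CARM1 knockout replicates 1 or 2 (the first), NFIB mutant replicate 2 (the second) or NFIB mutant replicate 3 (both), where the adjusted p was 0.1 or more. Plxna4 fell in the CARM1 knockout (log2 -2.35 ± 0.82, adjusted p = 0.0571), a call lost without TKO replicate 1 or CARM1 knockout replicates 1 or 3 (adjusted p = 0.124 to 0.162). It was not called in the NFIB mutant (log2 -1.39 ± 0.79, adjusted p = 0.186), except without its replicate 2 (log2 -2.15, adjusted p = 0.0994).

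Plxnc1 (chr10:94790866-94944835), the receptor of semaphorin 7A, was read at 73.2, 47.3 and 41.5 CPM in TKO, 13.4, 1.51 and 32.6 in the CARM1 knockout and 3.03, 2.95 and 1.21 in the NFIB mutant. All mutant libraries lay below TKO, and CARM1 knockout replicate 3 was the nearest to it. The log2 change was -4.49 ± 1.004 (adjusted p = 0.0104) in the NFIB mutant and -1.77 ± 0.89 (adjusted p = 0.152) in the CARM1 knockout, and without CARM1 knockout replicate 3 the latter was -2.81 (adjusted p = 0.0526). Plxnb3 was low throughout, at 1.06, 2.88 and 2.92 CPM in TKO, 0.0677, 0.815 and 0.785 in the CARM1 knockout and 0.121, 0.677 and 0.0634 in the NFIB mutant. The TKO libraries lay above the mutant libraries. Against TKO the log2 change was -2.96 ± 1.09 (adjusted p = 0.0579) in the NFIB mutant, lost without TKO replicates 2 or 3 or NFIB mutant replicates 1 or 3 (adjusted p = 0.117 to 0.153) and -4.52 without NFIB mutant replicate 2, and -2.02 ± 1.03 (adjusted p = 0.158) in the CARM1 knockout. Plxnb2 rose in the NFIB mutant (log2 1.35 ± 0.31, adjusted p = 0.0113), and in the CARM1 knockout its log2 change of 0.76 ± 0.31 (adjusted p = 0.0864) fell just short of 0.8. This change reached 1.09 and was called without TKO replicate 1 (adjusted p = 0.0386). Of those not called, Plxnb1, the receptor of semaphorin 4D, was read at 142, 87.3 and 106 CPM in TKO, 28.1, 24.6 and 89.7 in the CARM1 knockout and 63.4, 25.5 and 5.96 in the NFIB mutant (log2 changes -1.23 ± 0.81 and -1.82 ± 0.82, adjusted p = 0.256 and 0.105). It was called lower in the NFIB mutant without NFIB mutant replicate 1 or CARM1 knockout replicate 3 (adjusted p = 0.0407 and 0.0835). Plxnd1, the receptor of semaphorin 3E, was read at 281, 80.5 and 14.9 CPM in TKO, 181, 135 and 129.6 in the CARM1 knockout and 143, 88.4 and 82.8 in the NFIB mutant, with TKO spanning the mutant values (log2 changes 0.24 ± 0.82 and -0.26 ± 0.82, adjusted p = 0.834 and 0.813).

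Both neuropilins, the ligand-binding co-receptors of class 3 semaphorins that also bind vascular endothelial growth factor, rose in both mutants. Nrp1 (chr8:128358604-128503363) was read at 86.1, 47.6 and 30.5 CPM in TKO, 183, 212 and 148 in the CARM1 knockout and 234, 183 and 102 in the NFIB mutant. The lowest mutant library, NFIB mutant replicate 3, lay above the highest TKO library. The rise was 3.31-fold (log2 1.73 ± 0.43, adjusted p = 0.0190) and 3.17-fold (log2 1.66 ± 0.43, adjusted p = 0.0179). Nrp2 (chr1:62703285-62818695) was read at 28.3, 55.2 and 67.7 CPM in TKO, 228, 279 and 193 in the CARM1 knockout and 181, 693 and 112 in the NFIB mutant. The mutant libraries again lay above TKO, and NFIB mutant replicate 2 was far above the rest of its genotype. The rise was 4.63-fold (log2 2.21 ± 0.67, adjusted p = 0.0369) and 6.53-fold (log2 2.71 ± 0.69, adjusted p = 0.0165). The first was lost without TKO replicate 1 (log2 1.94, adjusted p = 0.107), and without NFIB mutant replicate 2 the second was 1.55. Fibroblasts and vessels express neuropilins too, and the fibroblast sums above were higher in all 6 mutant libraries, while the endothelial markers stayed at or below 4.60 CPM, and their part in these rises was not tested.

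Neither netrin passed the test. Ntn1 (chr11:68209364-68400823), the founding secreted netrin, was read at 3.02, 41.1 and 2.34 CPM in TKO, 46.6, 177 and 13.1 in the CARM1 knockout and 10.6, 20.7 and 21.9 in the NFIB mutant. TKO replicate 2 lay within the mutant values, and the libraries of TKO and of the CARM1 knockout differed several-fold among themselves. The log2 changes were 2.34 ± 1.28 (adjusted p = 0.180) and 0.19 ± 1.22 (adjusted p = 0.908), and without TKO replicate 2 they were 4.87 and 2.72, both called (adjusted p = 0.0297 and 0.0886). Ntn4, a netrin related to laminins, was read at 34.8, 30.1 and 54.6 CPM in TKO, 2.37, 13.5 and 44.5 in the CARM1 knockout and 4.92, 78.3 and 6.66 in the NFIB mutant, with overlapping groups and log2 changes of -0.98 ± 1.22 (adjusted p = 0.550) and -0.41 ± 1.21 (adjusted p = 0.8002). Without NFIB mutant replicate 2 the second was -2.77 and called (adjusted p = 0.0955), and without CARM1 knockout replicate 3 the first was -2.29. The standard errors of both genes exceeded 1 on the log2 scale, and at this spread even the log2 change of 2.34 at Ntn1 was not called.

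Of 5 netrin receptors tested, 1 rose and 1 fell in the CARM1 knockout, and 1 rose and 2 fell in the NFIB mutant. Dcc (chr18:71253634-72351069), the receptor for attraction, was read at 14.9, 25.7 and 6.28 CPM in TKO, 0, 0 and 0.449 in the CARM1 knockout and 0.0607, 0.0615 and 0 in the NFIB mutant. It was present in all TKO libraries and nearly absent from all mutant libraries. In the CARM1 knockout the log2 change was -6.61 ± 1.52 (adjusted p = 0.0143), all its counts being in replicate 3, and without that library both others were at 0. In the NFIB mutant Dcc was at least 82.1-fold lower (adjusted p = 0.00723), or at least 55.7-fold without TKO replicate 2. Unc5a (chr13:54949411-55006018) was read at 46.3, 73.7 and 29.6 CPM in TKO, 1.96, 2.68 and 46.2 in the CARM1 knockout and 0.121, 0.431 and 0.951 in the NFIB mutant. The NFIB mutant libraries lay far below TKO, as did CARM1 knockout replicates 1 and 2, while CARM1 knockout replicate 3 sat at a TKO level. On the log2 scale the change was -6.62 ± 1.51 (adjusted p = 0.0113) in the NFIB mutant and -1.56 ± 1.18 (adjusted p = 0.325) in the CARM1 knockout, and without CARM1 knockout replicate 3 the latter was -4.37 (adjusted p = 0.00926). Leaving out 1 library put the first between -7.46 (without NFIB mutant replicate 3) and -6.15 (without NFIB mutant replicate 1).

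Unc5b (chr10:60762593-60831581), a repulsive receptor that is also used by vessels, had the smallest adjusted p of all 49 genes in both mutants. It was read at 10.03, 9.04 and 8.36 CPM in TKO, 142, 155 and 81.3 in the CARM1 knockout and 92.4, 98.9 and 87.9 in the NFIB mutant. The TKO libraries were close together and every mutant library was far above them. The means and SD (n = 3) were 9.14 ± 0.837 CPM in TKO, 126 ± 39.4 CPM in the CARM1 knockout and 93.1 ± 5.53 CPM in the NFIB mutant, a 13.8-fold (log2 3.79 ± 0.26, adjusted p = 0.000331) and a 10.2-fold (log2 3.35 ± 0.26, adjusted p = 0.000285) rise. Neo1, the DCC relative neogenin, was read at 132, 149.7 and 301 CPM in TKO, 133, 258 and 154 in the CARM1 knockout and 190.0, 145 and 151 in the NFIB mutant, with overlapping groups (log2 changes -0.09 ± 0.37 and -0.26 ± 0.37, adjusted p = 0.858 and 0.584). Unc5c was read at 5.23, 5.37 and 9.69 CPM in TKO, 26.1, 3.32 and 6.23 in the CARM1 knockout and 6.37, 2.89 and 9.83 in the NFIB mutant, also overlapping (log2 changes 0.81 ± 0.80 and -0.09 ± 0.79, adjusted p = 0.445 and 0.935). Unc5d was read in 1 library only, TKO replicate 3, at 86.0 CPM (1944 counts), with at most 0.182 CPM elsewhere.

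The start site of Unc5b did not follow its RNA. Its most-read start-site peak (chr10:60830003-60832433) was read at 30.2, 26.1 and 43.4 CPM in TKO, 33.9, 35.8 and 28.3 in the CARM1 knockout and 26.4, 36.7 and 26.3 in the NFIB mutant. The 3 genotypes overlapped, with log2 changes of -0.02 ± 0.22 (adjusted p = 0.927) and -0.16 ± 0.22 (adjusted p = 0.540). The 250 bases before the start lie inside this peak (chr10:60831582-60831831, minus strand, GRCm38, RefSeq) and are shown because they are the accessible promoter of a gene whose RNA rose with the smallest adjusted p. No AP-1 (TGANTCA), E-box (CAGCTG) or NFI core (TTGGC, on the other strand GCCAA) was found in them, searching both strands, so no letters are in capitals.
Unc5b, upstream: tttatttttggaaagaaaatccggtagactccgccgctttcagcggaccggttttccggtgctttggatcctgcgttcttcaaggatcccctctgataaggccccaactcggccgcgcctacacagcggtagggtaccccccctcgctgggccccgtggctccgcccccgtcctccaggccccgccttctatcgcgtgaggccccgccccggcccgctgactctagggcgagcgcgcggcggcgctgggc

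Of 6 tested EphA receptors, 2 rose and 1 fell in the CARM1 knockout, and 2 rose and 2 fell in the NFIB mutant. Those that rose were Epha2 and Epha7, and those that fell were Epha5 and Epha8. Epha2 (chr4:141301240-141329384), an epithelial receptor studied in many carcinomas, was read at 9.31, 2.23 and 2.52 CPM in TKO, 43.5, 296 and 39.3 in the CARM1 knockout and 130.4, 92.3 and 116 in the NFIB mutant. Every mutant library lay above TKO, and CARM1 knockout replicate 2 was the highest. The rise was 26.9-fold (log2 4.75 ± 1.003, adjusted p = 0.0103) and 24.1-fold (log2 4.59 ± 0.996, adjusted p = 0.00921). Leaving out 1 library put the first log2 change between 3.15 (without CARM1 knockout replicate 2) and 5.75 (without TKO replicate 1) and the second between 4.25 (without TKO replicate 2) and 5.57 (without TKO replicate 1). Epha7 (chr4:28813131-28967499), known from the developing cortex, was read at 0, 0 and 0.177 CPM in TKO, 21.1, 4.02 and 3.03 in the CARM1 knockout and 24.5, 1.42 and 0.698 in the NFIB mutant. It was at 0 in TKO replicates 1 and 2 and at 4 counts in TKO replicate 3, and replicate 1 was the highest library in each mutant. The log2 change was 7.14 ± 2.06 (adjusted p = 0.0308) and 7.06 ± 2.05 (adjusted p = 0.0269), and was 5.74 without CARM1 knockout replicate 1 and 4.01 without NFIB mutant replicate 1. Without TKO replicate 3 no TKO count was left to set these changes.

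Epha5 (chr5:84054761-84417382), a receptor of the nervous system, fell from a clear level to almost none. It was read at 28, 58.5 and 32.4 CPM in TKO, 0 in all 3 CARM1 knockout libraries and 0.364, 0 and 0 in the NFIB mutant. All TKO libraries were well above the limit of detection, and in the mutants the only counts were 6 in NFIB mutant replicate 1. Epha5 was at least 195-fold lower in the CARM1 knockout (adjusted p = 0.00577), at least 149-fold without TKO replicate 2, and its log2 change in the NFIB mutant was -8.26 ± 1.43 (adjusted p = 0.00727). Epha8 (chr4:136929419-136956816), also mainly neural, was read at 20.4, 32.1 and 19.2 CPM in TKO, 0, 0.757 and 7.24 in the CARM1 knockout and 0.0607, 0 and 0.0634 in the NFIB mutant. Every mutant library lay below TKO, with CARM1 knockout replicate 3 the nearest. It was at least 126-fold lower in the NFIB mutant (adjusted p = 0.0106), at least 104-fold without TKO replicate 2. In the CARM1 knockout its log2 change was -3.16 ± 1.46 (adjusted p = 0.124), and without CARM1 knockout replicate 3 it was -5.89 (adjusted p = 0.0202).

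Epha4, which binds both ephrin classes, was read at 24, 31.4 and 31.2 CPM in TKO, 4.06, 96.2 and 4.38 in the CARM1 knockout and 18.2, 3.02 and 1.65 in the NFIB mutant. CARM1 knockout replicate 2 was above TKO and the other CARM1 knockout libraries below it. The log2 changes were 0.27 ± 1.30 (adjusted p = 0.883) and -1.92 ± 1.35 (adjusted p = 0.273), and without CARM1 knockout replicate 2 the first was -2.77 (adjusted p = 0.0946). Epha3 was read at 3.89, 5.59 and 2.92 CPM in TKO, 2.3, 7.1 and 5.22 in the CARM1 knockout and 0.971, 0.246 and 19.9 in the NFIB mutant, with NFIB mutant replicate 3 above and its other replicates below TKO. The log2 changes were 0.24 ± 1.30 (adjusted p = 0.899) and 0.77 ± 1.31 (adjusted p = 0.652), the second being -2.74 (adjusted p = 0.0511) without NFIB mutant replicate 3. Epha6 had at most 0.192 CPM in any library.

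The upstream sequences of Epha5 and Epha7 are shown because their start-site peaks, unlike that of Unc5b, moved with the RNA. The peak at Epha5 (chr5:84414908-84418032) was read at 37.9, 60.5 and 47 CPM in TKO, 1.27, 2.15 and 1.55 in the CARM1 knockout and 1.2, 0.529 and 0.863 in the NFIB mutant. TKO and mutants did not overlap, with log2 changes of -4.87 ± 0.36 (adjusted p = 1.17e-05) and -5.82 ± 0.38 (adjusted p = 6.53e-06). The peak at Epha7 (chr4:28812600-28816036) was read at 8.95, 4.79 and 8.32 CPM in TKO, 36.5, 21.8 and 24.9 in the CARM1 knockout and 39.5, 12.8 and 28.9 in the NFIB mutant. All mutant libraries lay above TKO, with log2 changes of 1.91 ± 0.40 (adjusted p = 0.00210) and 1.88 ± 0.40 (adjusted p = 0.00213). Both runs are 250 bases before the start from RefSeq on GRCm38, that of Epha5 at chr5:84417383-84417632 on the minus strand and that of Epha7 at chr4:28812881-28813130 on the plus strand, with the only NFI core (TTGGC) in capitals. Epha5 held none of the searched motifs. The NFI core stood in 41.5% of 32851 RefSeq promoters, read over the same 250 bases before the start.
Epha5, upstream: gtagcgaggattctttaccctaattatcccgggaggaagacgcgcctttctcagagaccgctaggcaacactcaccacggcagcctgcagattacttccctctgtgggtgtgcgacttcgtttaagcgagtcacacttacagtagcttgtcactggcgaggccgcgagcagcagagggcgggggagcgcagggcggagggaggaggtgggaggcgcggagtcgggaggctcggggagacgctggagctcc
Epha7, upstream: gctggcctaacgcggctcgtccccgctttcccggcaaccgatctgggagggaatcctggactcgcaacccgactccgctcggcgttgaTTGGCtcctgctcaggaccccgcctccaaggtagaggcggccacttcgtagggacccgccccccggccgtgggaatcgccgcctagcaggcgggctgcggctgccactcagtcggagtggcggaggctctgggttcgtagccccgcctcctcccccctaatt

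Of the 5 ephrin-A ligands, 1 rose and 1 fell in the CARM1 knockout, and 1 rose and 2 fell in the NFIB mutant. Efna5 (chr17:62604184-62881317), the ligand that with EphA receptors sets up topographic maps in the brain, was read at 74, 93.5 and 38.4 CPM in TKO, 1.29, 7.4 and 12.5 in the CARM1 knockout and 12.2, 0.923 and 7.29 in the NFIB mutant. The highest mutant library, CARM1 knockout replicate 3, lay below the lowest TKO library. Against TKO the log2 change was -3.28 ± 1.03 (adjusted p = 0.0413) in the CARM1 knockout and -3.33 ± 1.04 (adjusted p = 0.0339) in the NFIB mutant, and the first was lost without CARM1 knockout replicate 2 (adjusted p = 0.107). Leaving out 1 library put them between -3.93 (without CARM1 knockout replicate 3) and -2.78 (without CARM1 knockout replicate 1), and between -4.05 (without NFIB mutant replicate 1) and -2.81 (without NFIB mutant replicate 2). Efna4 (chr3:89333390-89338028) was read at 1.1, 1.22 and 1.19 CPM in TKO, 4.94, 9.08 and 3.76 in the CARM1 knockout and 6.43, 4.12 and 4.95 in the NFIB mutant. The TKO libraries were nearly equal and every mutant library was above them, a 5.05-fold (log2 2.33 ± 0.48, adjusted p = 0.00948) and 4.4-fold (log2 2.13 ± 0.48, adjusted p = 0.0105) rise. Efna2 was read at 18.2, 10.04 and 13.6 CPM in TKO, 5.75, 5.82 and 5.61 in the CARM1 knockout and 7.47, 6.59 and 1.4 in the NFIB mutant. All mutant libraries lay below TKO, but the call in the NFIB mutant (log2 -1.44 ± 0.59, adjusted p = 0.0805) was lost when any library other than TKO replicate 2 or NFIB mutant replicates 1 or 3 was left out (adjusted p = 0.105 to 0.206). In the CARM1 knockout its log2 change was -1.28 ± 0.59 (adjusted p = 0.121), called without NFIB mutant replicate 3 (adjusted p = 0.0286). Efna1, an epithelial ligand of EPHA2, was read at 4.27, 1.53 and 3.14 CPM in TKO, 3.05, 19.4 and 4.38 in the CARM1 knockout and 34.7, 5.79 and 4.25 in the NFIB mutant, with log2 changes of 1.58 ± 1.02 (adjusted p = 0.247) and 2.32 ± 1.04 (adjusted p = 0.103). The second was called without CARM1 knockout replicate 2 or NFIB mutant replicate 3 (adjusted p = 0.0773 and 0.0854). Efna3 was read at 0.767, 0.131 and 3.85 CPM in TKO, 0.677, 1.98 and 4.04 in the CARM1 knockout and 3.88, 0.923 and 0.317 in the NFIB mutant, with log2 changes of 0.50 ± 1.28 (adjusted p = 0.782) and 0.11 ± 1.28 (adjusted p = 0.950). The groups overlapped for both.

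**Figure D3:**
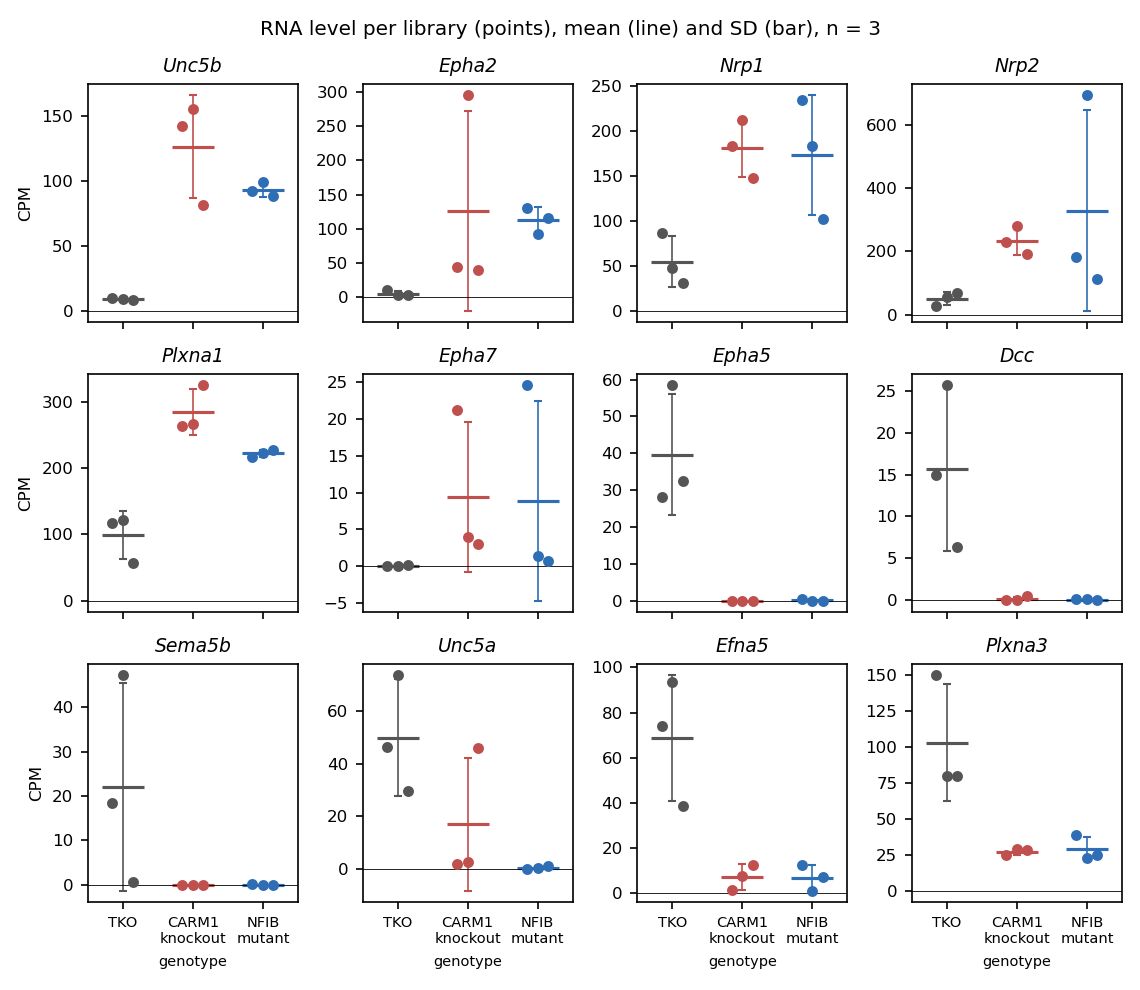
CPM of 12 genes (1 panel each, each with its own vertical axis) in every RNA-seq library by genotype (horizontal axis), with the mean as a line and the SD of 3 libraries as a bar. Unc5b and Plxna3 show tight groups without overlap, Nrp2 is stretched by NFIB mutant replicate 2, and Unc5a has CARM1 knockout replicate 3 at 46.2 CPM beside TKO.

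The mutants were also compared with each other. None of the 49 genes differed by edgeR's test, as for all genes (0% called), the smallest adjusted p among the 49 being 0.495, while 4 passed an unadjusted p of 0.05 (1415 of all genes did). For Unc5a the log2 difference of the CARM1 knockout over the NFIB mutant was 5.07 ± 1.42, for Epha8 5.80 ± 1.84, for Plxnc1 2.72 ± 0.93 and for Sema4b -0.69 ± 0.21. For the first 3 of these, replicate 3 was the CARM1 knockout library nearest to TKO. That library lay within the TKO range for Sema3g and Sema4d, which were not among these 4 genes. DESeq2, the alternative tool, called 2 of the 49, Unc5a (adjusted p = 0.00334) and Plxnc1 (adjusted p = 0.0775), and 540 of all genes. A gene called in one mutant and not in the other was therefore, with the exceptions DESeq2 gave, not shown to differ between them.

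Beyond the 51 genes, signaling partners of these receptors, both intracellular ones and co-receptors, were read from a list of 56 genes. In the CARM1 knockout 14 rose (25%, against 20.5% of all genes) and 9 fell (16.1% against 18.3%), and in the NFIB mutant 16 rose (28.6% against 22.3%) and 15 fell (26.8% against 23.5%). These shares were near the background. Median log2 changes were 0.02 and 0.15, against -0.03 and -0.05 over all genes. Collapsin response mediators carry semaphorin 3A signals to microtubules, and of 5 genes 3 fell in the CARM1 knockout, while 4 fell and 1 rose in the NFIB mutant. Crmp1 was read at 371, 361 and 251 CPM in TKO, 2.03, 8.39 and 62.7 in the CARM1 knockout and 11.3, 9.11 and 25.8 in the NFIB mutant. CARM1 knockout replicate 3 was the highest mutant library and still below TKO, and the log2 changes were -3.75 ± 1.12 (adjusted p = 0.0351) and -4.41 ± 1.16 (adjusted p = 0.0188). Of 10 MICAL and plexin effector genes, 5 rose and 1 fell in each mutant. Rras, a small GTPase switched off by plexins, was read at 7.2, 1.83 and 4.73 CPM in TKO, 51.5, 42.7 and 45.2 in the CARM1 knockout and 59.8, 93.5 and 88.1 in the NFIB mutant, with no overlap between TKO and mutants and log2 changes of 3.34 ± 0.47 (adjusted p = 0.00244) and 4.13 ± 0.49 (adjusted p = 0.00102). Farp1, which couples A-type plexins to Rac, was read at 89.5, 126 and 71.8 CPM in TKO, 349.6, 490.1 and 282 in the CARM1 knockout and 258, 291 and 274 in the NFIB mutant, also without overlap (log2 changes 1.97 ± 0.27 and 1.52 ± 0.27, adjusted p = 0.00227 and 0.00419).

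Vav3, an exchange factor that acts downstream of EphA receptors, was read at 0.144, 0.393 and 0.0442 CPM in TKO, 15.4, 9.78 and 11.6 in the CARM1 knockout and 46.6, 61.3 and 10.53 in the NFIB mutant. It was at 0.393 CPM or less in TKO and at 9.78 CPM or more in every mutant library (log2 changes 5.93 ± 0.92 and 7.61 ± 0.98, adjusted p = 0.00333 and 0.00141). Among 13 co-receptors 2 rose and 4 fell in the CARM1 knockout, and 2 rose and 7 fell in the NFIB mutant, with Met higher (log2 3.02 ± 0.65 and 4.25 ± 0.69, adjusted p = 0.0113 and 0.00308) and Lingo1 lower (log2 -6.05 ± 1.34 and -7.67 ± 1.46, adjusted p = 0.0121 and 0.00568). Of 11 adaptors and kinases 1 rose and 1 fell in the CARM1 knockout, and 1 rose and 2 fell in the NFIB mutant. Of 10 further family genes outside the 51, 5 were tested, of which Epha1 and Rgmb rose in the NFIB mutant (log2 2.03 ± 0.72 and 2.59 ± 0.83, adjusted p = 0.0521 and 0.0375) and none was called in the CARM1 knockout by edgeR.

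Open chromatin at the 51 genes was read from 476 peaks, of which 90 lay at an annotated start site, 346 in introns, 24 upstream, 15 in exons and 1 at a gene end, and 7 had the body of another coding gene at their middle. A total of 471 were tested among 111116 peaks by the same edgeR test, a change being called at an adjusted p below 0.1 and a log2 change of at least 0.5. In the CARM1 knockout 151 peaks rose (32.1%, against 38.7% of all peaks) and 216 fell (45.9% against 32.4%). In the NFIB mutant 148 rose (31.4% against 39.3%) and 226 fell (48.0% against 34.0%). Every mutant library lay above every TKO library at 122 peaks and below at 186, where 33.1% and 28.6% of all peaks did so. Between the mutants none of the 471 differed by edgeR (0% of all peaks), with 35 at an unadjusted p below 0.05 (6814 of all peaks) and 4 called by DESeq2. Peaks of 1 gene share that gene and often a neighborhood, so they are not independent measurements of it.

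The split depended on how libraries were scaled, in that trimmed-mean scaling and scaling by total counts placed the median of all peaks 0.58 (CARM1 knockout) and 0.57 (NFIB mutant) apart on the log2 scale. Scaling by start-site peaks of stably expressed genes shifted it by 0.40 and 0.46, and DESeq2's size factors by -0.17 and -0.14. Of the member peaks called higher, none changed sign under these scalings, and of those called lower 2 did in the CARM1 knockout, a start-site peak of Plxna1 and one of Sema4b, and 1 did in the NFIB mutant. With scaling by totals 65.9% and 64.3% of all called peaks were higher, against 54.4% and 53.6% with trimmed means.

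**Figure D4:**
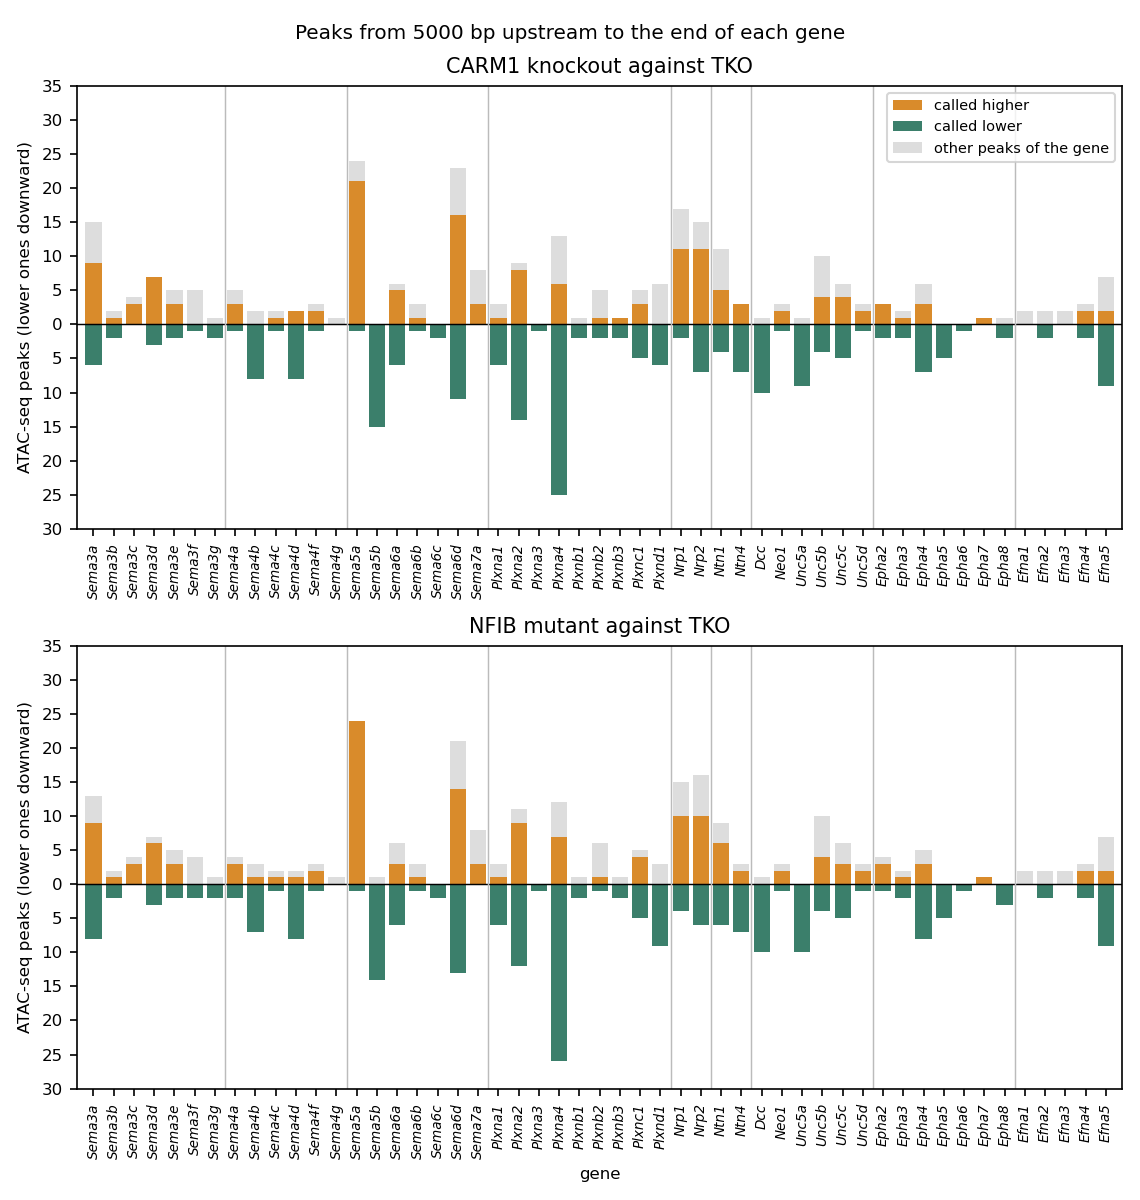
Number of ATAC-seq peaks from 5000 bp upstream to the end of each of the 51 genes (horizontal axis, grouped by role) called higher (upward, orange) or lower (downward, green) in the CARM1 knockout (upper panel) and the NFIB mutant (lower panel), with the other peaks in gray. Sema5a stands out upward with 21 and 24 peaks, and Plxna4 downward with 25 and 26.

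Over all peaks more rose than fell (38.7% against 32.4% in the CARM1 knockout and 39.3% against 34.0% in the NFIB mutant). By role, the neuropilins likewise had more peaks higher than lower, at 22 against 9 of 41 in the CARM1 knockout and 20 against 10 in the NFIB mutant, as did the class 3 semaphorins (23 against 16 and 22 against 19 of 54) and the class 5 to 7 semaphorins (46 against 36 and 45 against 37 of 100). The reverse held for the plexins (20 against 63 and 22 against 64 of 105), the netrin receptors (12 against 30 and 11 against 31 of 52), the EphA receptors (8 against 19 and 8 against 20 of 32), the ephrin-A ligands (4 against 13 in each mutant, of 28), the class 4 semaphorins (8 against 19 in each, of 34) and the netrins (8 against 11 and 8 against 13 of 25). At several genes nearly every peak moved one way. All 5 peaks of Epha5 fell, by 3.47 to 5.59 on the log2 scale in the CARM1 knockout and by 3.28 to 6.72 in the NFIB mutant. At Dcc 10 of 11 peaks fell in each mutant, at Sema5b 15 and 14 of 15, and at Unc5a 9 and 10 of 10, including the Unc5a peaks of the CARM1 knockout, whose RNA was not called. At Sema5a 21 and 24 of 25 peaks rose and 1 fell.

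Other genes held peaks of both directions. Nrp1 had 11 higher and 2 lower of 19 in the CARM1 knockout and 10 higher and 4 lower in the NFIB mutant, and Nrp2 had 11 and 7, and 10 and 6, of 22. Sema6d had 16 higher and 11 lower of 34 in the CARM1 knockout and 14 and 13 in the NFIB mutant. Unc5b had 4 of 14 higher and 4 lower in each mutant. The 2 most changed Unc5b peaks, both intronic, lay 16656 and 23411 bp from the 5' end. The first (chr10:60813716-60816134) was read at 2.71, 2.57 and 2.83 CPM in TKO, 21.8, 28 and 26.3 in the CARM1 knockout and 17.8, 22.6 and 23.5 in the NFIB mutant. Its mutant libraries lay well above TKO, with log2 changes of 3.23 ± 0.23 (adjusted p = 9.69e-06) and 2.98 ± 0.22 (adjusted p = 1.06e-05). The second (chr10:60807082-60809258) was read at 1.53, 2.44 and 2.28 CPM in TKO, 26.2, 19.4 and 19 in the CARM1 knockout and 11.8, 28 and 23.9 in the NFIB mutant (log2 changes 3.37 ± 0.36 and 3.35 ± 0.36, adjusted p = 6.39e-05 and 5.58e-05), again without overlap.

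Among the 28 peaks that were called higher in each mutant, with no overlap between libraries and a mean of at least 8 CPM in TKO or in a mutant, the 5 with the largest mean log2 change lay in introns of Sema5a, Sema3a, Plxna2, Nrp1 and Nrp2. Since they were picked by size, their values are a description. The Sema5a peak (chr15:32322053-32323554, 77993 bp into the gene) was read at 0.159, 0.309 and 0.929 CPM in TKO, 16.8, 15.1 and 13.9 in the CARM1 knockout and 18.2, 21 and 28.9 in the NFIB mutant, the lowest mutant library being far above the highest TKO library (log2 changes 5.08 ± 0.53 and 5.65 ± 0.54, adjusted p = 5.68e-05 and 3.27e-05). The Nrp1 peak (chr8:128464138-128466505) was read at 0.765, 0.464 and 1.06 CPM in TKO, 8.24, 15.9 and 9.55 in the CARM1 knockout and 10.49, 8.1 and 16.6 in the NFIB mutant, with the same order of groups (log2 changes 3.89 ± 0.48 and 3.95 ± 0.48, adjusted p = 0.000125 and 0.000101). The 300 bases at the middle of each, from GRCm38 on the plus strand, are shown as gains at a ligand and at a neuropilin from these 5, at chr15:32322653-32322952 for Sema5a and chr8:128465171-128465470 for Nrp1. Capitals mark AP-1 matches (TGANTCA) in the first and NFI core letters (GCCAA) in the second, and the windows overlap no annotated exon.
Sema5a, middle of the peak: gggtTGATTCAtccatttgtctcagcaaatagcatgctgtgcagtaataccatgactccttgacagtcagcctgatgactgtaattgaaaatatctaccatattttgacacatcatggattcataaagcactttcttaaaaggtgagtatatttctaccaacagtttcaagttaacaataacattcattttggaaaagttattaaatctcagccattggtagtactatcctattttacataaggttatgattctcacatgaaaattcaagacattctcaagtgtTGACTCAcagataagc
Nrp1, middle of the peak: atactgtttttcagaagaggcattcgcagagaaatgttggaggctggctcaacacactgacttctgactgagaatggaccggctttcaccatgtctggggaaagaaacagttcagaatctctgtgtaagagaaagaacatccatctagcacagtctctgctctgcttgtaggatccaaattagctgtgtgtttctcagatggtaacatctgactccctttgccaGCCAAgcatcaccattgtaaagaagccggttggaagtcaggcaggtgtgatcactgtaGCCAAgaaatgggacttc

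Of the 68 peaks lower by the same criteria, the 5 with the largest fall lay in Epha5, Sema6d, Efna5, Plxna4 and Sema3a, again in introns. Sema3a and Sema6d thus held peaks of opposite direction while their RNA was not called in the CARM1 knockout. The Epha5 peak (chr5:84152947-84153653) was read at 12.8, 17.4 and 3.72 CPM in TKO, 0.439, 0.0768 and 0.193 in the CARM1 knockout and 0.179, 0 and 0.137 in the NFIB mutant, with TKO replicate 3 the lowest TKO library and all mutant libraries below it (log2 changes -5.59 ± 0.95 and -6.72 ± 1.03, adjusted p = 0.000714 and 0.000348). The Plxna4 peak (chr6:32373682-32374555) was read at 6.85, 17.8 and 4.22 CPM in TKO, 0.439, 0.134 and 0.0967 in the CARM1 knockout and 0.448, 0.144 and 0.0392 in the NFIB mutant, with the same order (log2 changes -5.43 ± 0.94 and -5.56 ± 0.95, adjusted p = 0.000780 and 0.000657). The middle 300 bases of both on the plus strand of GRCm38, at chr5:84153150-84153449 and chr6:32373968-32374267, are shown as the losses at an ephrin receptor and at a plexin, with E-boxes (CAGCTG) and NFI core letters (TTGGC or GCCAA) in capitals and no AP-1 match in either.
Epha5, middle of the peak: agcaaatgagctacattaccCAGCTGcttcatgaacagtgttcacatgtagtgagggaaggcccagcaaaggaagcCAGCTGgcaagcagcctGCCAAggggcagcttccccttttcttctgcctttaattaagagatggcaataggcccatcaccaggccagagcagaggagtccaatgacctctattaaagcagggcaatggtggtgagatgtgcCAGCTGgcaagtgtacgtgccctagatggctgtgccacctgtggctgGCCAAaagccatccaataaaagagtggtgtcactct
Plxna4, middle of the peak: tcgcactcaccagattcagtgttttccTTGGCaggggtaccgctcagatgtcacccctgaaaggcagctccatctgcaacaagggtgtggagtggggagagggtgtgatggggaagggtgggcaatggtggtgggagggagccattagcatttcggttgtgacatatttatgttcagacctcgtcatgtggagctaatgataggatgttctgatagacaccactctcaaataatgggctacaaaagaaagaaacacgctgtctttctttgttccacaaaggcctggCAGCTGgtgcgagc

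These letters were counted in the middle 300 bases of all peaks, on both strands. An AP-1 match stood in 43.1% of the 151 member peaks called higher in the CARM1 knockout and in 5.56% of the 216 called lower, against 41.0% and 8.11% among all peaks of the same calls. In the NFIB mutant the shares were 41.9% of 148 and 5.75% of 226, against 41.1% and 8.05%. The E-box showed the reverse order, at 17.2% of higher and 31.9% of lower member peaks in the CARM1 knockout (19.0% and 28.0% of all peaks) and 18.9% and 31.9% in the NFIB mutant (19.2% and 27.7%). The NFI core stood in 41.7% of higher and 56.5% of lower member peaks in the CARM1 knockout (46.9% and 56.7% of all peaks) and in 41.9% and 57.5% in the NFIB mutant (46.7% and 56.2%). A pair of facing NFI cores with 5 bases between them was found in none of the 476 member windows and in 0.1003% of all 111664. A core of 5 letters occurs often in any window, and these shares are descriptions with no test.

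At start sites the 51 genes, like all genes, lost more than they gained. Of 89 tested start-site peaks 16.9% rose and 52.8% fell in the CARM1 knockout, where 21.2% and 34.6% of 23608 start-site peaks of all genes did so, and in the NFIB mutant 16.9% rose and 58.4% fell, against 21.6% and 38.6%. Taking the most-read start-site peak of each gene, 7 of 51 were higher and 28 lower in the CARM1 knockout, and 7 higher and 30 lower in the NFIB mutant. No share over the most-read start-site peaks of all genes was taken beside these counts. The counts moved with scaling, being 14 higher and 15 lower in the CARM1 knockout and 12 and 20 in the NFIB mutant with scaling by totals. They were 12 and 20, and 11 and 23, with scaling by stable start sites, and 5 and 30, and 6 and 35, with DESeq2 and its size factors.

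RNA and the most-read start-site peak were then set side by side, gene by gene. Of 9 genes lower in the CARM1 knockout 8 had a lower start-site peak (68.0% of all genes that fell did so), the exception being Sema4g, and of 16 lower in the NFIB mutant 14 did (74.9%), all except Sema4g and Sema6d. Of 10 genes higher in the CARM1 knockout 3 had a higher most-read start-site peak, namely Epha2, Epha7 and Efna4 (39.8% of all genes that rose), and of 13 in the NFIB mutant 4 did, with Sema5a (38.3%). Another start-site peak of Epha2 was called lower in each mutant. The most-read start-site peak of Epha2 (chr4:141308942-141312690) lay at an annotated start inside the gene. It was read at 16.6, 15.6 and 7.35 CPM in TKO, 28.3, 33.4 and 28.5 in the CARM1 knockout and 33.6, 34.2 and 34.3 in the NFIB mutant. All mutant libraries lay above TKO (log2 changes 1.19 ± 0.27 and 1.36 ± 0.27, adjusted p = 0.00301 and 0.00135). The start-site peak was instead lower at Plxna1 in both mutants and at Sema4b in the NFIB mutant. That of Plxna1 was read at 59.2, 56.9 and 27.6 CPM in TKO, 26.9, 33.7 and 34.3 in the CARM1 knockout and 28.3, 36.1 and 22.4 in the NFIB mutant, overlapping because of TKO replicate 3 (log2 changes -0.60 ± 0.28 and -0.73 ± 0.28, adjusted p = 0.0765 and 0.0362). The sign of its change in the CARM1 knockout turned under another scaling.

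Sema3b, Sema3c, Sema7a, Nrp1, Nrp2 and Unc5b rose in the CARM1 knockout with no call at their most-read start-site peak. A less-read start-site peak was called higher in each mutant at Sema3b, Sema7a and Plxnb2, and at Sema3b another was called lower. Outside start sites these 6 genes held 61 peaks, of which 31 rose (50.8%, against 43.4% of 87508 peaks outside start sites) and 14 fell (23% against 31.8%) in the CARM1 knockout. Of the same genes and Plxnb2 in the NFIB mutant, 29 of 64 such peaks rose (45.3% against 44%) and 16 fell (25% against 32.8%). Conversely, of the 30 genes whose RNA was not called in the CARM1 knockout 17 had a lower most-read start-site peak (36.7% of all such genes), among them Unc5a, Epha8, Plxnc1 and Neo1, as had 12 of 20 in the NFIB mutant (41.9%). Neo1 also had another start-site peak called higher in each mutant. Unc5d, read in 1 TKO library by RNA-seq, had a start-site peak at 33.2 CPM in TKO replicate 3 and at most 2.36 CPM elsewhere. Per the study's text both assays were run on the same tumor biopsies, and libraries of the 2 assays were not paired by number here.

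**Figure D5:**
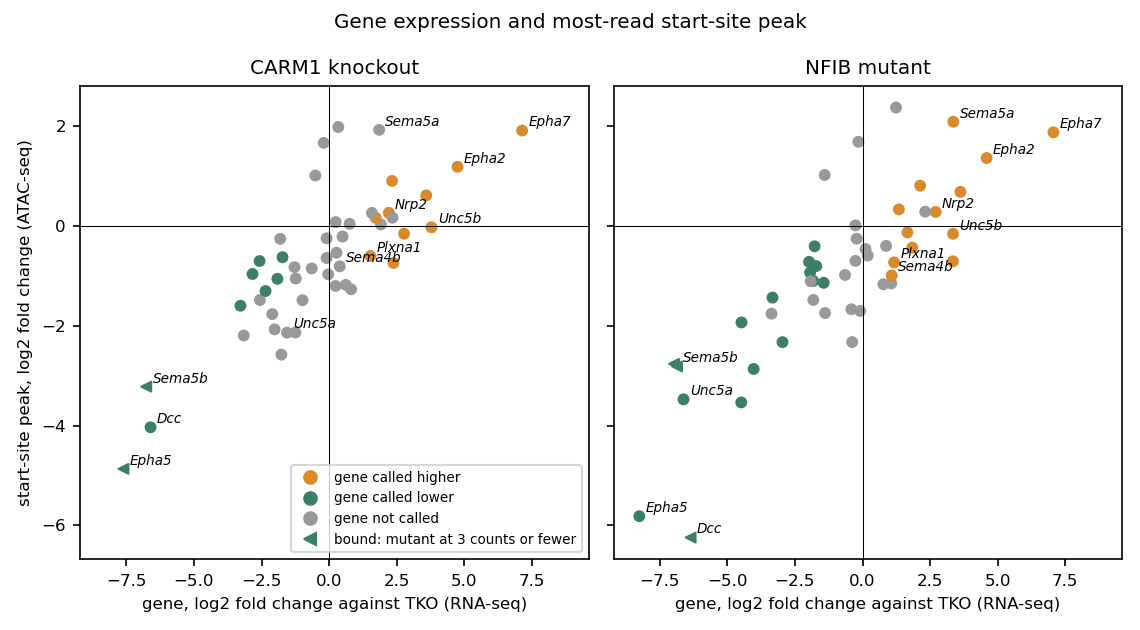
Log2 fold change of each gene by RNA-seq (horizontal axis) against that of its most-read start-site peak by ATAC-seq (vertical axis), in the CARM1 knockout (left) and the NFIB mutant (right), for the 49 tested genes colored by the RNA call. Triangles are bounds on the RNA change. Genes called lower lie below 0 on the vertical axis, while Unc5b lies far to the right at a start-site change near 0.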

How the data were processed

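RNA-seq and ATAC-seq were run on 3 animals of each of 3 genotypes. The authors deposited raw read counts per gene (HISAT2 on mm10 and htseq-count, per the methods) and raw counts per peak of 1 common peak set on GRCm38 (Bowtie2 and MACS2 per the methods, with Genrich also in the submitters' processing notes, and featureCounts 1.6.3 per the file headers). The 5 summary lines of the RNA-seq files were left out. Of all counts, on genes and in these lines together, reads on no gene came to 3.65% to 12.2% and ambiguous reads to 3.84% to 4.50%. Columns were matched to genotypes by initials (C for TKO, KO for TKO;Carm1, N for TKO;NfibR388K) and to replicates by number. Their names are not the sample titles, and the match could not be checked independently.

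Counts were fitted for each assay over its 9 libraries with edgeR 4.0.16 (limma 3.58.1, R 4.3.3): trimmed-mean scaling, the default filter on low counts, a robust quasi-likelihood test and Benjamini-Hochberg adjustment over all features. The thresholds (adjusted p below 0.1, log2 change of at least 0.8 for genes and 0.5 for peaks) are those of the study's methods. Errors of log2 changes are approximate standard errors, the size of the change divided by the square root of the F statistic of the test. The spread behind them was shared over all 9 libraries of an assay, with 3 animals per genotype. The fits were also run on simulated counts in which few features changed, evenly in both directions. Far more features were called in these data, so that run cannot decide how the scaling acts here. Alternatives were 16 for genes and 19 for peaks, DESeq2 1.42.0 among them. Sequences were read with pysam 0.24.0, and 43 of the 51 genes matched the RefSeq promoter table. The 51 genes and the lists of markers and signaling genes were chosen with earlier results of these data known. In each role, up to 3 called genes with the largest mean change and up to 2 uncalled genes with the highest level were described with every value, and genes named outside this rule (such as Epha2, Plxna1, Plxna2 and Sema7a) were added after their values were seen. One neuroendocrine marker and one group of signaling genes are not reported here. Labels give no batch, and the limits and bounds set by 3 counts cover counting error only.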

Additional observations from a re-analysis of the deposited data

How the results depend on the processing

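Results were recomputed with scaling by totals, other filters, DESeq2, stricter thresholds and each library left out. Genes called lower in the CARM1 knockout numbered 14 with DESeq2 against 9, and genes called lower in the NFIB mutant 9 when every library needed 10 counts, against 16. DESeq2 called 2 genes and 4 peaks between the mutants, against 0. With 10 counts in every library, member peaks called higher and lower were 64 and 96 in the CARM1 knockout and 65 and 107 in the NFIB mutant, since fewer peaks were tested, and with start-site peaks alone 15 and 47, and 15 and 52. Leaving out 1 library gave 9 to 11 genes higher and 7 to 12 lower in the CARM1 knockout, 10 to 14 and 12 to 17 in the NFIB mutant and 0 between the mutants, and for peaks 124 to 153 and 199 to 220, 137 to 155 and 211 to 231, and 0. Of the 48 called changes of member genes, 27 moved by over 1.5 times and 16 were lost without at least 1 library. Scaling by totals moved the median of all genes by -0.27 and -0.32 on the log2 scale, and 39.5% and 35.9% of called genes were then higher against 52.9% and 48.7%. No called change of a member gene turned its sign, and genes that were not called were not checked for this. Leaving out 1 library put Epha4 in the CARM1 knockout between -2.77 (without CARM1 knockout replicate 2, a reversal) and 0.84, and Epha3 in the NFIB mutant between -2.74 (without NFIB mutant replicate 3, a reversal) and 1.34. Same-numbered libraries of different genotypes did not deviate together (correlations -0.234 to 0.115 for RNA-seq and -0.141 to 0.101 for ATAC-seq). Low correlations between separate animals cannot decide whether the numbers mark a shared batch, and pairing of the 2 assays by number was not tested. With a replicate block the counts were 10 and 10 genes in the CARM1 knockout, 12 and 15 in the NFIB mutant and 0 between them, and 142 and 212, 145 and 217, and 0 peaks. Of the values of single genes and peaks, 2700 kept their call, 97 lost it, 77 gained it and 2 reversed. Values that turned sign while staying uncalled were not counted as reversals. Sema4a in the CARM1 knockout, for example, had a log2 change of -0.20, and of 2.02 without TKO replicate 1. Genes under 3 counts in a library cannot be told from absent at this depth.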
